A study of Rattus norvegicus with 22 samples.

Results

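The genes described here encode the proteins of the cytosolic ribosome. They were taken as every gene whose single symbol on the array begins with Rpl or Rps followed by a digit, together with Rplp0, Rplp1, Rplp2 and Rpsa where a probe set carried that symbol alone, and without the Rps6k kinases. This gave 190 of the 18166 genes with 1 symbol. A gene with several probe sets was represented by its brightest, judged on the average of all 22 arrays. The tissue was the median liver lobe of 22 female Crl:CD(SD) rats, an outbred stock, labelled as 12 weeks old. Of these, 10 rats had received GSK932121A, an inhibitor of complex III of the mitochondrial respiratory chain, as 1 intraperitoneal dose of 50 mg/kg, with livers taken 5 hours later. The other 12 had received the vehicle, for which the labels give no time. The study dosed 12 rats in each group, and its submitters left 2 treated rats out because little compound had reached their plasma, so the treated group holds only rats with exposure. Each rat was hybridised to its own Affymetrix whole-transcript array, and levels are given as log2 values throughout.

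Ribosomal proteins clothe the ribosomal RNAs of the large subunit, which joins amino acids, and of the small subunit, which reads the mRNA. Their mRNAs begin with a run of pyrimidines, the 5′ terminal oligopyrimidine or TOP tract. In mammals the kinase complex mTORC1 sets how actively such mRNAs are translated, and the RNA-binding protein Larp1 holds them back when mTORC1 is inactive, so that supply of these proteins is controlled largely at translation and not only through mRNA level. Mammalian genomes also carry many processed copies of these genes, most of them pseudogenes.

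The 190 members fall into 55 canonical genes, 87 loci with a like symbol (a copy named after its parent, such as Rps26l6), 43 loci with a pseudogene symbol (such as Rps27a-ps1), 4 paralogs (Rpl3l, Rpl7l1, Rpl22l1 and Rps4y2) and Rps19bp1. The last encodes a protein that binds Rps19 and came in only through its symbol. In the gene table used, 146 members are annotated as protein-coding and 42 as pseudogenes. Copies of 1 parent share most of their sequence, so signal from near-identical loci cannot be told apart, and a value given for a locus is that of its probe set. Copies of a gene are not replicates of each other. A further 31 probe sets carried several ribosomal protein symbols and are given separately. Rplp1, Rps27a, Rps4x, Rpl22, Rpl10l, Rpl36al, Rpl39l and Rps27l had no probe set of their own and are not reported as genes. Of the members, 73 had a mean below the lowest array median of 4.73, and for such dim probe sets small changes are compressed towards the background.

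The start regions of the members that the comparison turns on show what the family shares besides its name. RefSeq promoter sequences (GRCr8) were matched for 121 members, of which 45 are canonical. A run of at least 8 pyrimidines (C or T on the sense strand) touched the 20 bases on either side of the annotated start in 36 of these 45, or 80%, against 20.9% of all 27457 promoters. Among 65 copies with a like symbol the share was 35.4%. The windows below run from 50 bases before to 30 bases after the annotated start, 5′ to 3′ on the sense strand, with that pyrimidine run in capitals. Rpl23 and Rps19 are canonical genes that fell, Rpl11 is one that fell and has no such run, Rpl7l1 is a paralog that rose, Rpl10 has probe sets that differ, and Rpl13a, often used as a housekeeping control, did not pass.
Rpl23, chr10:83272155-83272234, minus strand: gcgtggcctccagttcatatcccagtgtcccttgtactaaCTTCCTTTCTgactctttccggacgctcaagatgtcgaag
Rps19, chr1:89608638-89608717, plus strand: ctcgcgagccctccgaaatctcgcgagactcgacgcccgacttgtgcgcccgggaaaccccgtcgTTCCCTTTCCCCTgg
Rpl11, chr5:153560773-153560852, minus strand: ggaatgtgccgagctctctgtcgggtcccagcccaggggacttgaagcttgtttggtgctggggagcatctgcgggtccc
Rpl7l1, chr9:21695668-21695747, plus strand: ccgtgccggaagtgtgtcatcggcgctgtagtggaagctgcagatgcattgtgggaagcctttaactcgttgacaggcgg
Rpl10, chrX:157205800-157205879, plus strand: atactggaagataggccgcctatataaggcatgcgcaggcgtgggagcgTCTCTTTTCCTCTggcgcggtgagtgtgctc
Rpl13a, chr1:104748884-104748963, minus strand: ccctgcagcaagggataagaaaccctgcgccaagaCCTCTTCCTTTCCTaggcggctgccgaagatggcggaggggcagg

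The runs are 10 bases long in Rpl23, 13 in Rps19 and Rpl10, and 14 in Rpl13a. That of Rpl23 ends just before the annotated start, that of Rpl10 spans it, and that of Rps19 lies downstream of it. In Rpl11 no run of 8 lay in the window searched, which says only that these letters are not there. Other motifs, searched on both strands over 300 bases (250 before and 50 after the start), were also more frequent in the canonical members than among all promoters. The ETS-type motif CCGGAAG was in 28.9% against 9.22%, and the YY1-type motif AAGATGG in 17.8% against 7.30%. The cyclic-AMP response element TGACGTCA was in 6.67% against 1.91%, and the E-box CACGTG in 11.1% against 6.65%. These last shares rest on 3 and 5 of the 45 canonical promoters. Among the 65 copies with a like symbol, the YY1-type motif was in 15.4% and the ETS-type motif in 6.15%. The cyclic-AMP response element and the E-box were each in 0% of those copies. The TATAAA box was in 11.1% of canonical members against 14.3% of all. A match describes the sequence and is no evidence of a bound factor.

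At 5 hours, 10 of the 190 members differed between GSK932121A and vehicle livers in limma at a Benjamini-Hochberg adjusted p under 0.05, fitted and adjusted over all genes. These 10 are 5.26% of the members, against 12.4% of all genes tested. Of them, 3 rose (Rpl30, Rpl7l1 and Rps26-ps12), where 5.31% of all genes rose, and 7 fell (Rps27a-ps1, Rps18l5, Rps26l6, Rpl11, Rpl23, Rps26l5 and Rps19), where 7.05% of all genes fell. Each of the 10 moved by less than 1.5-fold, between 1.13-fold and 1.43-fold. At an unadjusted p under 0.05 there were 34 of the 190 members and 4354 of all 18166 genes, a smaller share among the members. The log2 difference, GSK932121A minus vehicle, was below 0 for 124 members, or 65.3%, against 52.4% of all genes, and its median was −0.06 against −0.01. For 153 of the 190 members the 95% interval of the difference lay wholly within 0.5 log2 units of 0 in either direction. That is a smaller share than the 87.7% of all genes. In bulk liver, fewer cells of a type and less RNA per cell cannot be told apart.

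**Figure D1:**
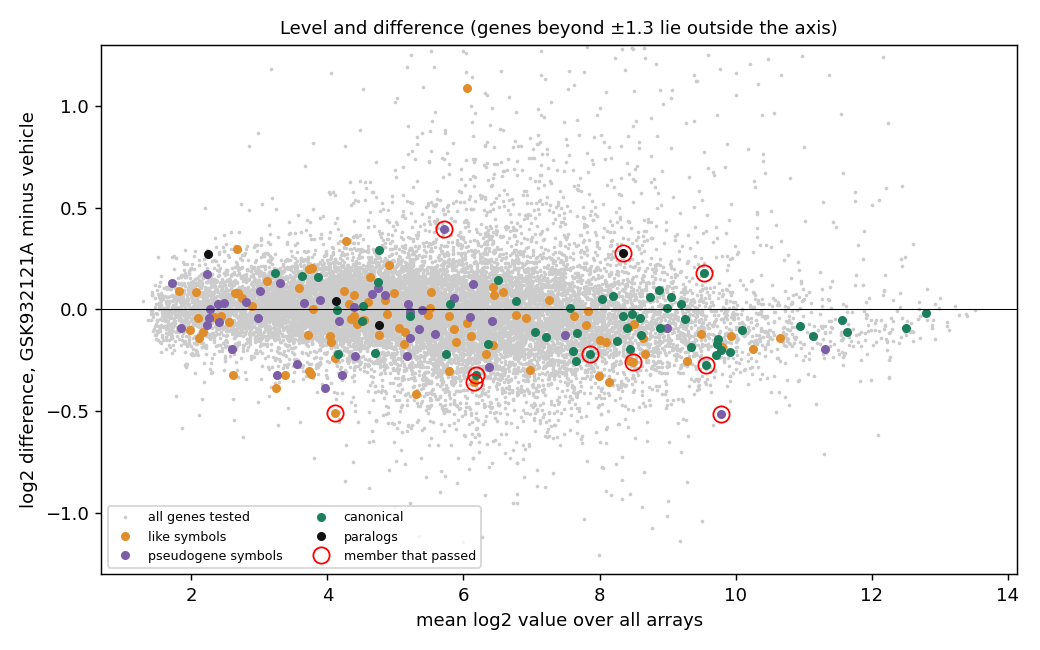
Log2 difference, GSK932121A minus vehicle, on the vertical axis against the mean log2 value over all arrays on the horizontal axis, with all genes in grey and ribosomal protein genes coloured by class. Red rings mark the 10 members that passed; most bright members lie a little below 0 and none reaches a difference of −0.6.

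Negative differences were most frequent among the bright members, and their share also grew with level among all genes. Of the 83 members with a mean log2 value under 5, 41 were below 0, with a median of 0.00 against 0.01 for all genes of that level. Of the 44 between 5 and 7, 31 were below 0, with a median of −0.06 against −0.02 for all genes of that level. Of the 37 between 7 and 9, 29 were below 0, with a median of −0.09 against −0.05. Of the 26 members at 9 or above, 23 were below 0, with a median of −0.14 against −0.07 for all genes of that level. From the lowest level to the highest, 49.4%, 70.5%, 78.4% and 88.5% of members were below 0. For all genes these shares were 44.6%, 55.8%, 59.8% and 67.7%. Among all 63 members at 7 or above, 2 rose and 4 fell, or 9.52%, while 23% of all genes of that level passed.

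The bright members also varied together from animal to animal, in both groups. For each array the median deviation of these 63 members from their vehicle means was taken. It was −0.27, −0.14, −0.22, −0.08, −0.02, 0.08, −0.13, −0.04, −0.15 and 0.04 in the 10 GSK932121A arrays (replicates 13, 14, 16 to 18 and 20 to 24, in that order). In the 12 vehicle arrays it ran from −0.23 in replicate 10 to 0.14 in replicate 5, with a median of 0.06. Treated values were thus lower on the whole, 8 of 10 below 0 against 5 of 12, but the ranges overlapped widely, and the lowest vehicle liver lay below 9 of the 10 treated livers. Over all 4199 genes at 7 or above, the same quantity ran from −0.12 to 0.01 in GSK932121A arrays. In vehicle arrays it ran from −0.03 to 0.07, so the span was narrower in each group. A median over 4199 genes varies less by number alone, so the spans are not like for like. For those genes, 9 of 10 GSK932121A arrays and 8 of 12 vehicle arrays were below 0. The 72 mitochondrial ribosomal proteins spanned about as widely as the cytosolic ones, from −0.26 to 0.01 in GSK932121A arrays and from −0.16 to 0.19 in vehicle arrays. In vehicle replicate 10, 49 of the 63 members lay below their vehicle mean, and in vehicle replicate 7 only 9 did.

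**Figure D2:**
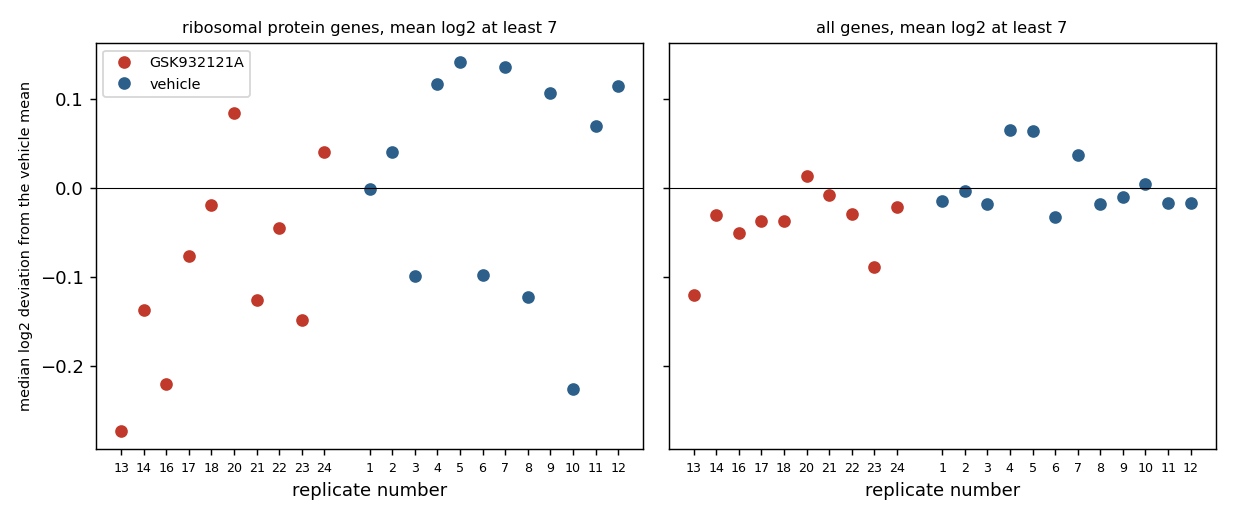
Median log2 deviation from the vehicle mean in each array, on the vertical axis, for the 63 ribosomal protein genes (left) and the 4199 genes overall (right) with a mean log2 value of at least 7; the horizontal axis gives the replicate number. GSK932121A arrays are red and vehicle arrays blue. The ribosomal protein values overlap between the groups. They spread more widely than those of all genes, which are medians over many more genes.

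Among the 55 canonical genes 1 rose and 3 fell, or 7.27% against 12.4% of all genes. The 3 falls depended on the scaling and the test: 0 canonical genes fell under cyclic loess or median centring, with 7 and 6 at an unadjusted p under 0.05, and 1 fell in Welch's test and 1 in the Wilcoxon test. Of the 55, 37 had a difference below 0, with a median of −0.08. For the 38 with a mean log2 value of at least 7 the median was −0.10, against −0.05 for all genes of that level. By subunit, 1 of 35 large-subunit genes rose and 2 fell, while 1 of 18 small-subunit genes fell. The 95% interval lay within 0.5 log2 units of 0 for 48 of the 55. The canonical genes with a pyrimidine run near the start had a median difference of −0.09 over 36 genes, 2 of which fell. The 9 without one had a median of 0.01, and 1 of them fell, so the falls came from both kinds. Those with a run were brighter, with a median level of 8.52 against 7.57, and differences below 0 were more frequent at higher levels. Rpl30, the canonical gene that rose, had no matched promoter and is in neither group.

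**Figure D3:**
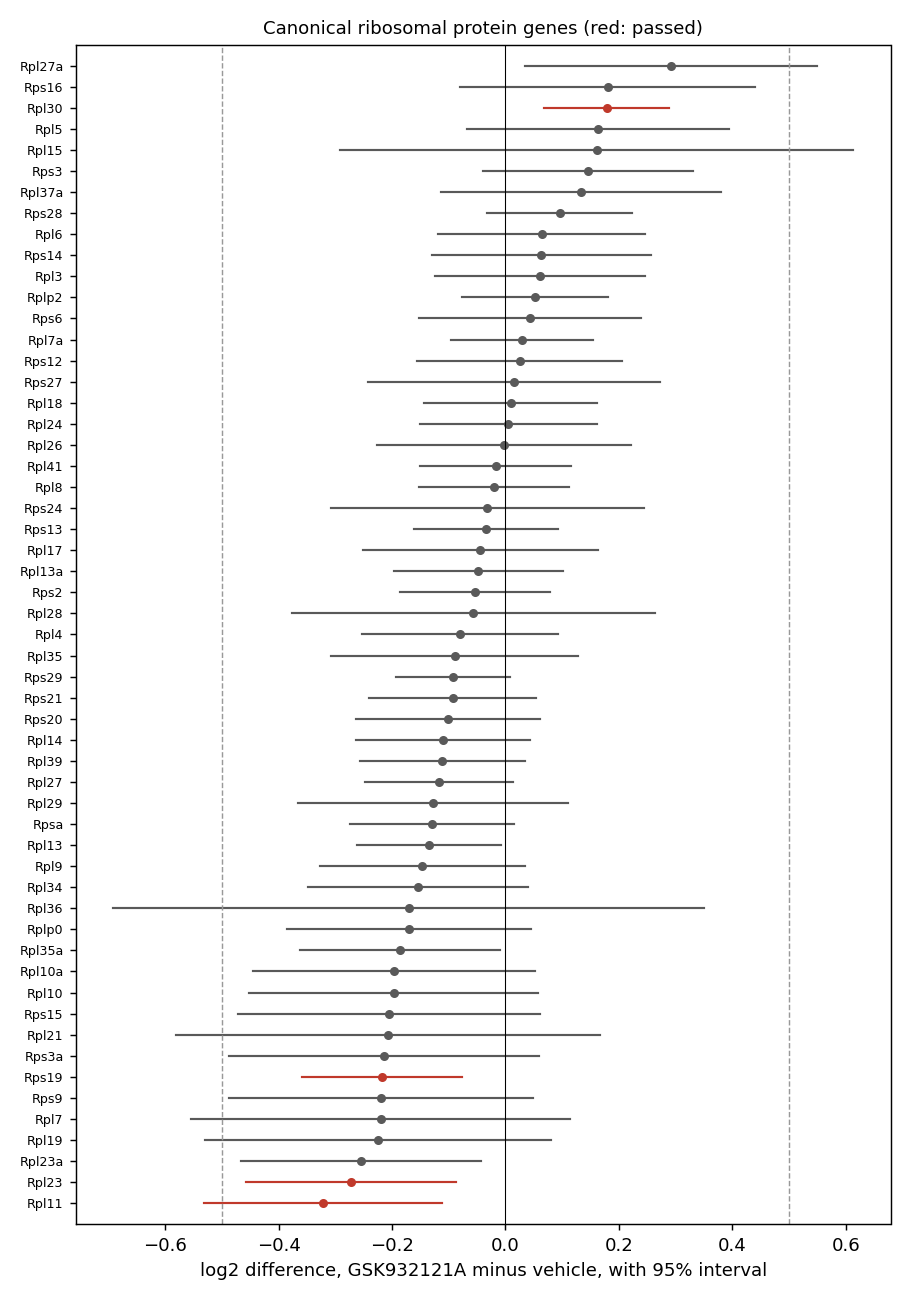
Log2 difference, GSK932121A minus vehicle, with its 95% interval from limma, on the horizontal axis, for the 55 canonical genes, one per line in order of the difference; dashed lines mark 0.5 log2 units either side of 0. Red marks the 4 genes that passed: Rpl30 above 0, and Rps19, Rpl23 and Rpl11 below it.

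Rpl30 encodes a large-subunit protein that in yeast also binds its own transcript. Its values in GSK932121A livers were 9.59 at the lowest, 9.62 at the median and 9.73 at the highest, against 9.14, 9.47 and 9.58 in vehicle livers. All 10 treated livers lay above all 12 vehicle livers, though the gap between the groups was narrow, and this was the one member whose groups did not overlap; 0.457% of all genes were separated upwards in this way, and 0.738% in either direction. The rise was 1.13-fold (log2 difference 0.18 ± 0.05 SE, adjusted p = 0.0268, limma). The treated group was tight, with an SD of 0.05 against 0.12 in vehicle livers. The other probe set of Rpl30 did not share this: its difference was −0.19, and it did not pass. Its values fell into 2 bands in both groups, with no array between 8.26 and 8.98; 4 treated and 8 vehicle livers lay in the upper band, and 6 treated and 4 vehicle livers in the lower one. With the mean of both probe sets the difference was −0.0061 (adjusted p = 0.987), so the call of Rpl30 rests on its brighter probe set.

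Rpl11 is a large-subunit protein that, with Rpl5 and 5S RNA, can bind and inhibit Mdm2, the ubiquitin ligase of p53. It measured 5.38, 6.10 and 6.42 (lowest, median, highest) in GSK932121A livers, against 6.11, 6.34 and 6.54 in vehicle livers. Of the treated livers, 5 lay below the whole vehicle range, while the upper ends of the groups overlapped. Rpl11 fell 1.25-fold (log2 difference −0.32, adjusted p = 0.0370). Rpl5, its partner, had a difference of 0.16 and did not pass (adjusted p = 0.413), on a dim probe set.

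Rpl23, a large-subunit protein that can also bind Mdm2, measured 9.12, 9.46 and 9.66 in GSK932121A livers, against 9.32, 9.68 and 10.03 in vehicle livers. The ranges overlapped in part, with the lowest values in treated livers and the highest in vehicle livers. The fall was 1.21-fold (log2 difference −0.27, adjusted p = 0.0461). Rpl26, which binds p53 mRNA, had a difference of −0.003 (adjusted p = 0.991).

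Rps19, the small-subunit protein whose gene is mutated in Diamond-Blackfan anaemia, measured 7.54, 7.77 and 7.91 in GSK932121A livers, against 7.74, 7.91 and 8.28 in vehicle livers. The treated livers sat in the lower part of the vehicle range or just below it. The fall was 1.16-fold (log2 difference −0.22, adjusted p = 0.0363). A second probe set of Rps19 had a difference of −0.17 and did not pass (adjusted p = 0.144).

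Well-known members that did not pass had small differences. Rplp0, the base of the P stalk to which elongation factors bind, had a difference of −0.17 (95% interval −0.39 to 0.04), and Rplp2 of the same stalk had 0.05 (−0.08 to 0.18). Rps6, the substrate of the S6 kinases, had 0.04 (−0.15 to 0.24). Rps3, at the mRNA entry of the small subunit, had 0.15 (−0.04 to 0.33). Rpsa, also known as a laminin receptor, had −0.13 (−0.27 to 0.01), Rpl3 had 0.06 (−0.12 to 0.25) and Rpl13a had −0.05 (−0.20 to 0.10). Each of these intervals reaches, upwards or downwards, a change as large as the smallest among the members that passed (0.18, Rpl30). None reaches one as large as the largest (−0.52, Rps27a-ps1). The largest positive difference of a canonical gene was that of Rpl27a, at 0.29 (adjusted p = 0.143), on a dim probe set in which the lowest vehicle liver stood apart at 3.68.

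Rpl7l1, a paralog of Rpl7, was the paralog that passed. It measured 8.32, 8.47 and 8.71 in GSK932121A livers, against 7.78, 8.21 and 8.51 in vehicle livers. The groups overlapped between 8.32 and 8.51, with the vehicle livers spread more widely below. It rose 1.21-fold (log2 difference 0.28, adjusted p = 0.0229). Rpl22l1, the paralog of Rpl22, had a difference of 0.27 that did not pass (adjusted p = 0.0937) on one of the dimmest probe sets. Rpl3l, the muscle paralog of Rpl3, had 0.04, and Rps4y2, a paralog of Rps4x, had −0.08.

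**Figure D4:**
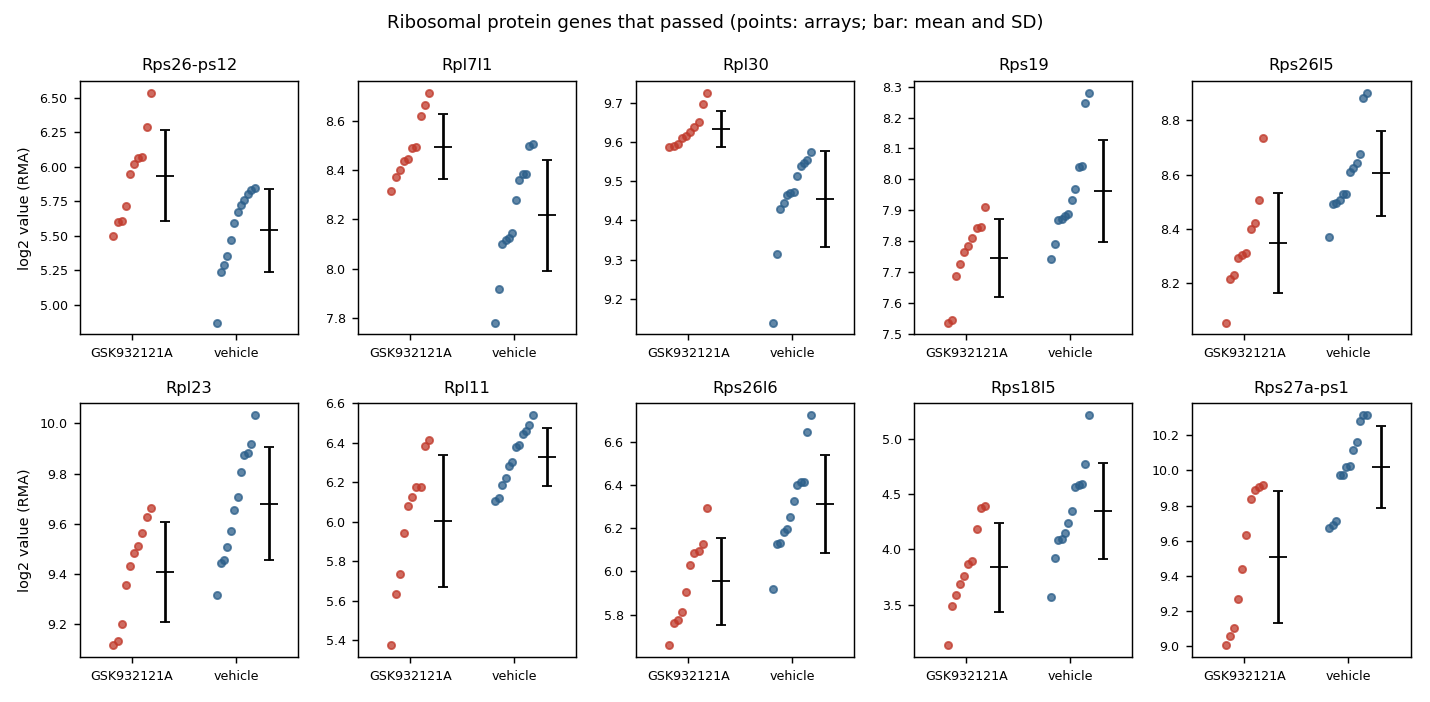
Log2 values of the 10 members that passed, each point 1 array, with GSK932121A to the left of vehicle in each panel and the mean and SD beside the points; the vertical scale differs between panels. Panels run from the largest rise (Rps26-ps12, 0.39) to the largest fall (Rps27a-ps1, −0.52), and the groups overlap in every panel but that of Rpl30.

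The largest change among the members that passed was at a probe set with a pseudogene symbol. Rps27a-ps1, a copy of the gene for the ubiquitin and small-subunit fusion protein, measured 9.01, 9.54 and 9.91 in GSK932121A livers, against 9.67, 10.02 and 10.31 in vehicle livers. The treated livers spread over about 0.9 log2 units, 6 of them below every vehicle liver and the rest within the vehicle range. It fell 1.43-fold (log2 difference −0.52, adjusted p = 0.00500). Its second probe set gave −0.37 (adjusted p = 0.00913, limma over all annotated probe sets). Signal from the parent Rps27a, which had no probe set of its own, cannot be told apart from that of this copy. The locus lies within the protein-coding gene Foxj3 in the gene table used, and the Foxj3 probe set moved the other way, with a difference of 0.23 (adjusted p = 0.0388). The 4 Rps27a copies measured all had differences below 0, from −0.52 to −0.04, and Rps27a-ps1 was the one that passed.

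The copies of Rps26, the small-subunit protein at the mRNA exit, did not move alike. Of 6 loci, Rps26-ps12 rose, Rps26l6 and Rps26l5 fell, and the differences ran from −0.36 to 1.09. Rps26-ps12, annotated as protein-coding despite its symbol, measured 5.50, 5.98 and 6.54 in GSK932121A livers, against 4.87, 5.64 and 5.85 in vehicle livers, a 1.31-fold rise (adjusted p = 0.0370). Rps26l6 measured 5.66, 5.97 and 6.29 in GSK932121A livers, against 5.92, 6.29 and 6.73 in vehicle livers, a 1.28-fold fall (adjusted p = 0.00883). A probe set that carries both Rps26 and Rps26l6 had a difference of −0.08 and did not pass (adjusted p = 0.499). Rps26l5, annotated as a pseudogene, measured 8.05, 8.31 and 8.73 in GSK932121A livers, against 8.37, 8.57 and 8.90 in vehicle livers, a fall of 0.26 on the log2 scale (adjusted p = 0.0228). In each of these 3 loci the ranges overlapped.

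Rps26l1 had the largest difference of any member, 1.09 ± 0.48 (SE), and did not pass (adjusted p = 0.160). It measured 4.76, 6.94 and 8.22 in GSK932121A livers, against 3.51, 5.66 and 7.32 in vehicle livers. The values were scattered over several log2 units in both groups, with an SD of 1.38 in treated and 1.18 in vehicle livers. That is the widest spread of any member; the median SD over members was 0.24 in GSK932121A livers and 0.27 in vehicle livers, against 0.20 in each group over all genes. Rps18l5 completes the members that passed. Its dim probe set measured 3.13, 3.81 and 4.40 in GSK932121A livers, against 3.57, 4.29 and 5.21 in vehicle livers, and it fell 1.42-fold (log2 difference −0.51, adjusted p = 0.0394). The 2 probe sets shared by Rps18, Rps18l1 and Rps18l5 had differences of −0.10 and −0.14 and did not pass. The other members at either end of the ranking were copies that did not pass, most of them dim. Rpl30l3 had a difference of 0.33 and Rpl23al5 of 0.30, against −0.41 for Rpl29l1, −0.39 for Rpl23al2 and −0.39 for Rps10-ps22. Rps27 of the small subunit, also dim, had 0.02.

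Copies of Rpl36 varied widely and together. Rpl36 measured 8.74 to 10.13 in GSK932121A livers and 8.42 to 10.59 in vehicle livers. In vehicle replicates 6, 8 and 10 it was 8.86, 8.42 and 8.61, and in GSK932121A replicates 13 and 16 it was 8.74 and 8.85, while every other liver was above 9.2. The same 5 livers were the lowest for Rpl36l2 and Rpl36l6. The Rpl36 copies share sequence, so these 3 patterns are not independent of each other. None of these 3 loci passed: the differences were −0.17 for Rpl36, with an adjusted p of 0.750, −0.14 for Rpl36l2 and −0.13 for Rpl36l6, and the SD within groups was 0.66 to 0.78 for the 3 loci.

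Probe sets of 1 gene mostly had the same sign. Of 21 members with several probe sets, 4 had probe sets of both signs: Rpl10, Rpl30, Rpl35l4 and Rpl8. Rpl10, a large-subunit protein that joins late in ribosome assembly, measured 9.30, 9.66 and 10.04 in GSK932121A livers, against 9.40, 9.80 and 10.58 in vehicle livers by its brighter probe set. The ranges overlapped, with 2 treated livers below every vehicle liver, and the difference of −0.20 did not pass (adjusted p = 0.358). Its dimmer probe set measured 6.94, 7.28 and 7.75 in GSK932121A livers, against 6.30, 6.56 and 6.98 in vehicle livers. There, 9 of 10 treated livers lay above every vehicle liver, and the rise was 1.64-fold (log2 difference 0.71, adjusted p = 1.13e-05, limma over all annotated probe sets, of which 12.1% passed). Which stretch of the Rpl10 locus each probe set covers was not analysed here, and the gene table places 1 small nucleolar RNA gene inside Rpl10.

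**Figure D5:**
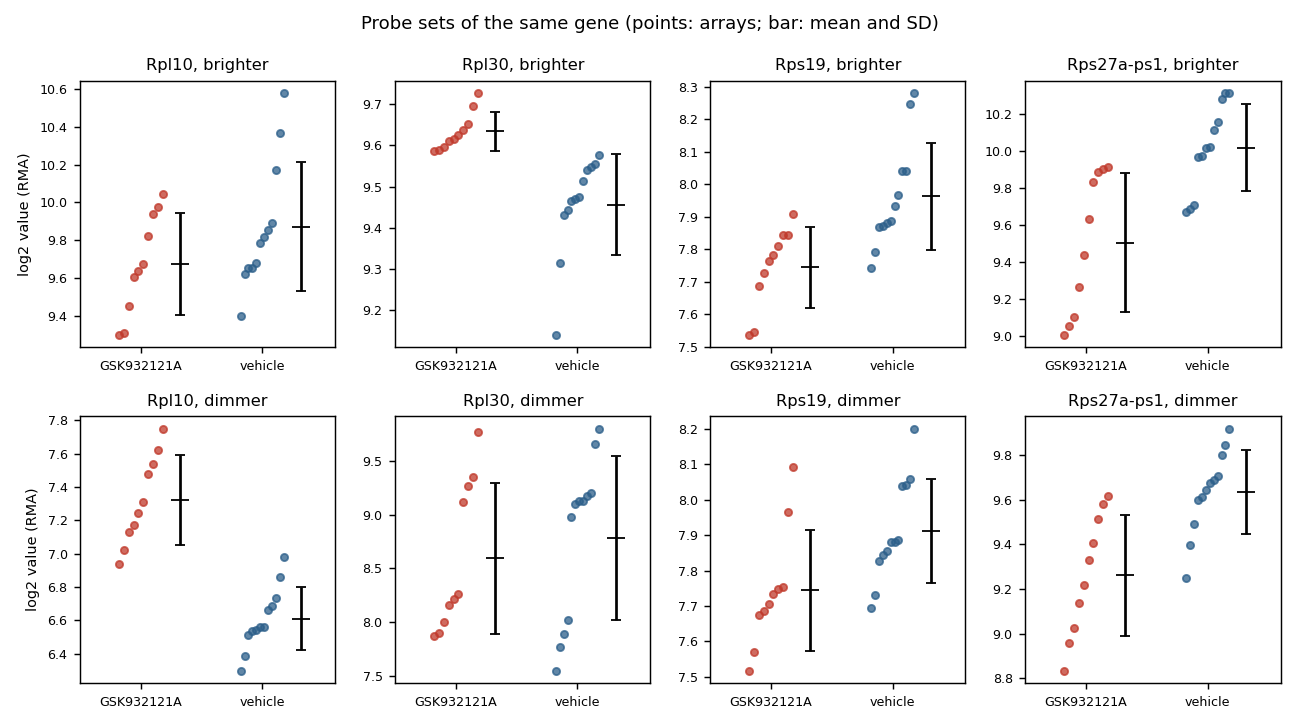
Log2 values by array for both probe sets of Rpl10, Rpl30, Rps19 and Rps27a-ps1, brighter set above and dimmer set below, with GSK932121A left of vehicle and the mean and SD beside the points; vertical scales differ. The Rpl10 probe sets differ in direction, the dimmer Rpl30 set splits into 2 bands in both groups, and both sets of Rps27a-ps1 are lower in GSK932121A livers.

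Over the 33 member probe sets that did not stand for a gene, 1 rose (Rpl10), 1 fell (Rps27a-ps1) and 27 had differences below 0. The 31 probe sets with several ribosomal protein symbols gave 0 calls in limma, 4 at an unadjusted p under 0.05, and 28 differences below 0, with a median of −0.12. The lowest of these differences was −0.41 for the set shared by Rpl12, Rpl12-ps1 and Rpl12l2, in which the SD was 0.68 in GSK932121A livers and 0.79 in vehicle livers. Among all 19086 annotated probe sets, 12.1% passed, 10008 had differences below 0, and 4534 had an unadjusted p under 0.05. Several of the 33 and of the 31 probe sets measure the same gene, so they are not separate observations. Many canonical members host small nucleolar RNAs in their introns. Of 24 with such a gene inside, 1 rose and 1 fell, with a median difference of −0.05, and of 29 without, 2 fell, with a median of −0.09. Among the 25 copies that lie inside another protein-coding gene, 1 fell. In that order, 8.33%, 6.90% and 4% of these groups passed, against 12.4% of all genes.

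Genes that act on ribosomal proteins or their mRNAs stood beside these values as follows. Of 21 other genes listed as having TOP mRNAs, most of them translation factors, 4 had an unadjusted p under 0.05. In limma 0 of the 21 passed, against 12.4% of all genes. Whether each of the 21 has such a tract was not checked here. Tpt1 and Eef1a1 passed as falls and Eif3a as a rise in Welch's test over all genes, Tpt1 alone in the Wilcoxon test, and Eif3a alone, as a rise, under cyclic loess. Eef1a1, which brings aminoacyl-tRNA to the ribosome, had a limma difference of −0.14 (adjusted p = 0.119), and Eef2, the translocase, had −0.04 (adjusted p = 0.731).

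Of 19 regulators of mTORC1 and of TOP mRNAs, whose median level was 7.02, 2 rose and 6 fell, or 42.1%. Among all genes 12.4% passed, with 17.0% at levels of 5 to 7 and 23.4% at 7 to 9. The balance of rises and falls among the 19 depended on the setting. Under cyclic loess 3 rose and 2 fell, under median centring 2 rose and 3 fell. Under quantile normalisation 3 rose and 3 fell, and in the Welch and the Wilcoxon test alike 2 rose and 4 fell. Ddit4, an inhibitor of mTORC1, measured 5.71, 6.51 and 7.97 in GSK932121A livers, against 5.09, 5.46 and 5.73 in vehicle livers, with 9 of 10 treated livers above the vehicle range. It rose 2.41-fold (adjusted p = 9.24e-05). Larp1, the repressor of TOP mRNAs, rose 1.22-fold (adjusted p = 0.00172). Eif4ebp2, which sequesters the cap-binding factor, fell 1.33-fold (adjusted p = 0.00182), and its relative Eif4ebp1 fell 1.25-fold (adjusted p = 0.0499). The other falls were Sesn1, Nprl2 and Deptor, which restrain mTORC1, and Mlst8, one of its subunits, by 1.26-, 1.19-, 1.19- and 1.18-fold. These are mRNA levels; translation and mTORC1 activity were not measured.

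Of 13 chaperones and importers of ribosomal proteins 3 rose: Rpf2 and Rrs1, which load the 5S particle of Rpl5 and Rpl11, by 1.27- and 1.26-fold, and the importin Ipo5 by 1.23-fold. Of 11 genes of ribosome quality control, Pelo, which rescues stalled ribosomes, rose 1.19-fold, and Ltn1, the ligase that marks stalled chains, fell 1.17-fold. The calls are 23.1% of the chaperones and importers and 18.2% of the quality control genes, where 12.4% of all genes passed. Of 27 ribosome biogenesis genes 14 rose and none fell in limma, or 51.9%. Of the 27, 20 had an unadjusted p under 0.05, and the median difference was 0.28. Welch's and the Wilcoxon test each called 1 fall. Gnl3, a nucleolar GTPase, measured 7.03, 7.64 and 8.45 in GSK932121A livers, against 6.59, 6.88 and 7.24 in vehicle livers, a 1.72-fold rise with overlapping ranges. Tsr1, a factor of small-subunit maturation, rose 1.43-fold, and its groups did not overlap, with 6.50 to 7.02 in GSK932121A livers and 5.94 to 6.38 in vehicle livers. Of 72 mitochondrial ribosomal proteins 60, or 83.3%, had differences below 0, against 65.3% of the cytosolic members, and the median difference was −0.10. In limma 8 of the 72 fell and 1, Mrps31, rose, by 0.99 log2 units. These calls are 12.5% of the list, against 12.4% of all genes, and under cyclic loess 4 fell and 2 rose.

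Array medians ranged over 4.73 to 4.85, and identical arrays numbered 0. Hepatocyte markers were bright, with Cps1 of the urea cycle the 1 of 4 that changed, a rise of 1.25-fold. Of the marker lists for other cells, Cd163 was the 1 of 6 Kupffer cell markers to pass, a rise of 1.28-fold, and Lyve1 the 1 of 2 endothelial markers, a rise of 1.16-fold. Their summed levels overlapped, with log2 sums of 10.08 to 10.68 in GSK932121A livers against 9.92 to 10.83 in vehicle livers for Kupffer cells, and of 9.80 to 10.15 against 9.69 to 10.03 for endothelium. None passed in limma among 5 lymphocyte, 4 neutrophil, 5 stellate, 4 cholangiocyte and 2 erythroid markers, of which 1, 1, 1, 0 and 0 had an unadjusted p under 0.05. Among all genes 12.4% passed. The part of these cell types in the values above was not tested.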

How the data were processed

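Livers of 10 GSK932121A and 12 vehicle rats were each measured on 1 array. The deposited values are log2 intensities that the authors made with RMA, which corrects background, normalises between arrays and summarises probes, per the submitters' processing notes. A shift common to all genes is removed by such normalisation. Neither the software nor its probe set definition is given in the sources used here. The number of arrays limits the precision. The protocol text gives the age as 10 to 14 weeks.

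Of 36685 probe sets, 18511 had 1 symbol, 575 several and 17599 none in the platform annotation, and 18394 of those with 1 symbol matched the gene table by Entrez identifier. Of the 190 members, 188 matched it. Replicates are separate rats, per the labels, which give no batch or date.

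Differences came from limma 3.58.1 in R 4.3.3, with group as the single term, all 22 arrays, empirical Bayes without trend and Benjamini-Hochberg adjustment over 18166 genes; probe sets with several symbols and second probe sets were fitted among 19086 annotated probe sets, a step added after seeing the data. Folds are the log2 differences taken back to a linear scale. Tables and plots used Python 3.11.15, pandas 2.3.3, numpy 2.4.6 and matplotlib 3.10.9. In simulated data for the 18166 genes, limma recovered 32.8% of 67 genes changed 1.2-fold, 95.5% of 67 changed 1.5-fold and 100% of 66 changed 2-fold, and called 11 unchanged genes. Genes were drawn independently there, which real genes are not.

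Members, companion lists, tests and alternatives were chosen with earlier results of these data known, so no list is tested as a set and counts stand beside those of all genes. Members named were those that passed, the 5 highest and 5 lowest differences and a set of well-known members; list genes named were up to 4 per direction that passed. Genes of the translation factor and regulator lists beyond that, and Rpl36, its copies, Rpl35l4, Rpl8, Rpl12, Foxj3 and Mrps31, were named after their values were seen. Alternatives were other normalisations, level filters, the mean of probe sets, array weights, an intensity trend made robust, Welch and Wilcoxon tests, and each array left out.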

Additional observations from a re-analysis of the deposited data

Results flagged for a closer look

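Among members named by the rule, Rps10-ps22 had 1 GSK932121A liver well above the others of its group, at 4.79, while the group's lowest was 3.25 and its median 3.75; its gap to the next liver was 0.476 of the group's range. Vehicle livers ran from 3.19 to 5.18, so the value lay within their range. About 1 in 20 groups shows such a gap by chance, and 31 named members in 2 groups were looked at. A probe set of Rpl10 that did not stand for the gene differed by 0.71 log2 units (adjusted p = 1.13e-05, limma over all annotated probe sets), with 9 of 10 GSK932121A livers above every vehicle liver. A probe set of Rps27a-ps1 that did not stand for the gene differed by −0.37 (adjusted p = 0.00913), in the same direction as the one that did.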

How the results depend on the processing

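The median difference of the members kept its sign under the alternatives tried. Over normalisations, level filters, probe set means and array weights it was −0.12 to −0.04. The −0.12 is the median of the 63 members kept by the filter at a mean log2 value of 7. For the 190 members with each array left out, the median was −0.08 to −0.04. The number of members passing was 10, became 6 under cyclic loess and 6 under median centring, and was 7 to 11 under the other alternatives. With 1 array left out it ran from 5 (without GSK932121A replicate 13) to 15 (without vehicle replicate 10), and it was 6 without GSK932121A replicate 17. The cause was not tested. The calls of Rps26l6 and Rps27a-ps1 were kept in every alternative that tested them, and that of Rps26l5 in all but cyclic loess (adjusted p = 0.0708). Leaving out 1 array ended the call of Rpl30 (without GSK932121A replicate 22, adjusted p = 0.0516), of Rpl7l1 (without GSK932121A replicate 13, 0.0508), and of Rpl11, Rpl23, Rps18l5, Rps19 and Rps26-ps12 in 10, 14, 13, 7 and 11 of 22 cases (adjusted p up to 0.0766, 0.0977, 0.0849, 0.0767 and 0.0793). The Welch and Wilcoxon tests ended those of Rpl11, Rpl23, Rps18l5 and Rps26-ps12. Cyclic loess and median centring each ended those of Rpl11, Rpl23 and Rps19, median centring also that of Rps26-ps12, array weights that of Rps18l5 and the mean of probe sets that of Rps19. With the mean of its probe sets Rpl10 turned to 0.26 (adjusted p = 0.0238) and Rpl30 to −0.0061 (adjusted p = 0.987); the probe sets differ in direction. With 1 array left out, Rpl26 lay between −0.053 and 0.038, Rps27 between −0.033 and 0.089 and Rpl3l between −0.0042 and 0.089, none passing. No paired analysis was possible because the groups share no replicate numbers.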
